A study of Mus musculus with 96 samples.

Results

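Of the 4132 H3K27me3 consensus peaks of hippocampal neurons, 1258 (30.4%) lay inside a gene body, that is in an intron, an exon or an untranslated region as annotated by the authors. These 1258 regions were described here. Each was a counting window of 401 bp in the GRCm38 mouse genome. The chromatin came from the hippocampus of C57BL/6N mice aged 6 months, whose nuclei had been sorted by staining for the neuronal protein NeuN, so that NeuN+ stands for neurons and NeuN- for the other cells. Animals were either wild type (WT), lacked Mutyh (Mutyh-/-), lacked Ogg1 (Ogg1-/-) or lacked both genes (DKO). Mutyh and Ogg1 encode DNA glycosylases, which remove mispaired or oxidised bases, and they were deleted in the germline, so in all cells of the animals and not only in neurons. Each genotype had 3 H3K27me3 NeuN+ libraries, and nuclei of several animals of the same genotype had been pooled before sorting, so that a replicate was a pool.

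H3K27me3, the trimethylation of lysine 27 on histone H3, is written by Polycomb repressive complex 2 (PRC2), whose subunits include Suz12. The mark is best known at CpG-rich promoters of developmental regulators that a differentiated cell keeps silent, and in neurons it covers the regulators of other lineages. It also spreads over broad domains that run into gene bodies and intergenic sequence. H3K4me3 marks promoters that are active or poised, and promoters that carry both marks are called bivalent.

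In the H3K4me3 tables, promoter peaks were found at 13 of 15 neuron marker genes in NeuN+ nuclei (Rbfox3, Snap25, Syt1 and others) and at 0 of 15 in NeuN- nuclei. Of 23 glial and vascular marker genes, 3 (Mbp, Oaf and Slc1a3) had a promoter H3K4me3 peak in NeuN+ and 2 in NeuN- nuclei. The neuron markers thus separated the fractions, and the glial and vascular markers did not. The study counted far fewer H3K4me3 consensus peaks in NeuN- than in NeuN+ nuclei, and the bearing of this on the marker counts was not tested. The 12 H3K27me3 NeuN+ libraries held 23794 to 52344 reads in peaks, and the median gene-body peak held 2 to 8 recovered reads per library, so that most single peaks were measured with low precision. In a library, 6.12% to 29.4% of the gene-body peaks had a value of 0. Whether input reads had been subtracted is not given in the sources used here, so a value of 0 need not mean that no read fell in the window. The replicate 1 libraries of the knockouts stood apart, with mean levels over gene-body peaks of 1.63, 1.76 and 1.90 on the log2(value + 1) scale against 2.03 to 2.73 in the other 9 libraries. No H3K27me3 peak was annotated to Mutyh or Ogg1, so the deletions could not be checked with these peaks.

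Sequences of some of the peaks are given first. The stretch with the most CpG dinucleotides is shown for each peak, 30 bases of the plus strand of GRCm38 (RefSeq assembly) with the CpGs in capitals. The first set holds gene-body peaks that overlapped a Suz12 peak and held at least 20 CpGs. They are shown because so few gene-body peaks held this many CpGs. The Jarid2 window held 22 CpGs but had a GC content of 47.1%, near the gene-body median of 46.9%.
Prdm13 exon 4 (chr4:21679108-21679137): CGggCGcCGggagagCGgCGtagCGCGCGg
Dmrta2 exon 3 (chr4:109981836-109981865): ctgggagCGCGggCGcCGgCGgtggCGgCG
Myo15b exon 1 (chr11:115859711-115859740): CGCGgcCGCGagagggCGctCGaggCGCGg
Rnf220 intron 3 (chr4:117304297-117304326): CGgcCGgtcCGactgtcagCGCGcCGggCG
Jarid2 intron 4 (chr13:44869607-44869636): agCGtCGacatCGggCGccttaaccCGgCG

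The second set holds the highest peaks of genes with many gene-body peaks. The windows of Sox6, Ebf1 and Ptprm, with 2, 5 and 5 CpGs, stand for the common case of few CpGs, whereas that of Zfhx3 holds 12.
Sox6 intron 9 (chr7:115567362-115567391): aaaattgagaCGcctatgtcaaaggagtCG
Zfhx3 intron 2 (chr8:108241331-108241360): gtCGcagaatgattCGgaCGcCGataccCG
Ebf1 intron 6 (chr11:44664983-44665012): CGtaaaaactaagtccaCGtaatcaacaaa
Ptprm intron 24 (chr17:66696211-66696240): CGaatcatgaCGtatgCGtctgtctttgag
The third set holds 5 of the 12 gene-body peaks that were called with every antibody in both fractions, shown because this group includes the highest gene-body peaks.
Gm10800 exon 1 (chr2:98667145-98667174): atggCGagaaaactgaaaatcaCGgaaaat
Gm10801 exon 1 (chr2:98662676-98662705): CGtttccaaCGaatgtgtttttcattgtaa
Chl1 intron 3 (chr6:103649167-103649196): CGtttccaaCGaatgtgtttttcagtgtaa
Cdk8 intron 2 (chr5:146261075-146261104): ctggtCGCGgccccCGgCGCGcCGggctCG
Filip1l intron 1 (chr16:57391519-57391548): CGCGgCGggCGagaCGggcCGgtggtgCGc
The stretches of Gm10801 and Chl1, on chromosomes 2 and 6, were identical at 29 of 30 bases.

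By annotation, 969 of the gene-body peaks (77.0%) were intronic, 222 (17.6%) exonic, 58 in a 3' untranslated region (UTR) and 9 in a 5' UTR. Of the intronic peaks, 369 lay in the first intron of the annotated transcript and 600 in a later one. The peaks were CpG-poor. The median was 5 CpGs per 401 bp window against 12 in the 1095 promoter peaks, and 36 gene-body peaks (2.86%) held at least 20 CpGs against 357 promoter peaks (32.6%). The median GC content was 46.9% in gene bodies and 54.6% at promoters. The 1778 distal intergenic peaks had a median of 4 CpGs and 46.1% GC, and 40 of them (2.25%) held at least 20 CpGs. The motif CGCGCG, searched on both strands (it reads the same on each), was found in 10 gene-body peaks (0.795%), in 130 promoter peaks (11.9%) and in 160 of all 4132 peaks (3.87%). A run of CACACACA or TGTGTGTG was found in 124 gene-body peaks (9.86%) against 9.39% of all peaks, and a run of GAGAGAGA or TCTCTCTC in 84 (6.68%) against 7.26%. At least 50% of the bases were soft-masked as repeats in 116 gene-body peaks (9.22%), in 3.20% of the promoter peaks and in 15.2% of the distal peaks.

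By chromosome, chromosome 2 held 150 (11.9%), chromosome 7 held 120, chromosome 8 held 105 and chromosome X held 2. The nearest other H3K27me3 peak was 20366 bp away in the median, against 20600 bp for distal and 57190 bp for promoter peaks. The median distance from a gene-body peak to the transcription start site given in its annotation was 21833 bp.

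Gene bodies carried less H3K27me3 per window than promoters. In WT, the quartiles of the mean value of a gene-body peak were 3.04, 4.75 and 6.81, where the value is the reads in the window divided by a factor for the library. The median promoter peak had 7.77 and the median distal peak 4.57. Within libraries, the mean log2(value + 1) of gene-body peaks was lower than that of promoter peaks by 0.52 ± 0.16 (SD) and this held in 12 of 12 libraries (exact sign-flip permutation test over libraries, two-sided p = 0.000488, the smallest that 12 libraries allow, adjusted p = 0.000814 over 5 comparisons). Against distal peaks the difference was 0.04 ± 0.05, above 0 in 10 of 12 libraries (exact permutation p = 0.0200, adjusted p = 0.0250), and it did not pass the test when medians replaced means (exact permutation p = 0.25). First-intron peaks and later-intron peaks differed by 0.05 ± 0.08, above 0 in 9 of 12 libraries (exact permutation p = 0.0796). The order of promoter above gene body was thus the same in every library.

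**Figure D1:**
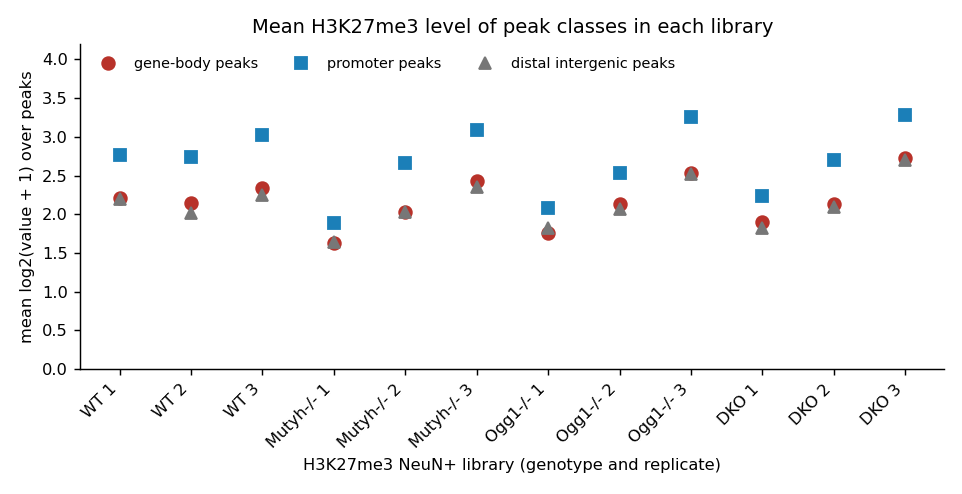
Mean log2(value + 1) of gene-body, promoter and distal intergenic H3K27me3 peaks (y axis) in each of the 12 NeuN+ libraries (x axis, genotype and replicate). Promoter peaks (squares) lie above gene-body peaks (circles) in 12 of 12 libraries, and the knockout replicate 1 libraries have the lowest points of their genotypes.

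Gene-body peaks with more CpGs had higher levels. Peaks with 0 to 2 CpGs (n = 324) had a median WT mean of 4.15, those with 3 to 5 (n = 427) 4.40, those with 6 to 9 (n = 321) 5.06, those with 10 to 19 (n = 150) 6.04 and those with at least 20 (n = 36) 10.4. Across the 1258 peaks, Spearman's rank correlation of the WT mean was 0.25 with the CpG count, 0.27 with GC content, -0.11 with the share of masked bases and -0.02 with the length of the host gene (over the 1250 peaks with a length). All windows share the same 3 WT libraries, so these correlations describe the windows and are given with no test.

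The 1258 peaks lay in 757 host genes, where the host is the gene whose annotated transcript contains the peak (GENCODE M21), and 5 peaks had no host. The host was also the closest gene named by the authors' annotation for 787 peaks, while 466 peaks lay in one gene and were nearest to the start of another. Protein-coding genes held 899 peaks, long intergenic non-coding RNA genes 176 and antisense genes 69. Most hosts had few peaks. A single peak was found in 563 hosts, and 37 hosts with at least 5 peaks held 308. A promoter H3K27me3 peak was found in 156 hosts (20.6%) and a promoter H3K4me3 peak in 175 (23.1%), 74 hosts had both, and 500 had neither. The 384 peaks in hosts with promoter H3K27me3 had a median WT mean of 4.53, and the 874 others 4.82. Peaks in hosts with promoter H3K27me3 lay closer to their next peak, 16.4 kb against 23.4 kb in the median. The next peak could be the promoter peak by which the hosts were grouped. The shorter distance is thus partly fixed by the grouping and is given as a description.

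Several of the hosts with the most peaks encode regulators of transcription, by counts that were not divided by gene length. Per 100 kb, Sox6 held 3.52 peaks, Tshz2 2.96 and Zfhx3 1.57. Of genes with 8 peaks each, Ddah1 held 5.90 per 100 kb, Nxn 5.64 and the transcription factor gene Ebf2 4.05. Sox6, a transcription factor of glial, cartilage and interneuron development, held 20 peaks over its 568 kb. Their summed values were 89.8, 93.0 and 143.9 in WT, 54.8, 86.3 and 119.9 in Mutyh-/-, 58.5, 68.0 and 135.7 in Ogg1-/- and 69.9, 114.4 and 106.7 in DKO. All groups overlapped, with means ± SD of 108.9 ± 30.4, 87.0 ± 32.6, 87.4 ± 42.1 and 97.0 ± 23.8 (n = 3 each). The highest Sox6 peak, in intron 9, had a WT mean of 12.1 ± 7.70. Sox6 also had promoter peaks of both H3K27me3 and H3K4me3.

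Wwox, a tumour suppressor gene that spans a common fragile site, held 17 peaks over 913 kb, and 4 of these were nearest to the start of another gene. Its sums were 69.0, 77.5 and 90.5 in WT, and the widest range was that of Mutyh-/-, with 36.5, 83.0 and 73.9. Zfhx3, a zinc finger homeobox transcription factor, held 16 peaks, and its sums were 63.5, 119.6 and 115.5 in WT. Tshz2, a zinc finger homeobox regulator of the teashirt family, held 13 peaks, of which 4 were at least 50% masked. Rbms3, an RNA-binding protein gene, held 12 peaks, all between 504 and 840 kb from the start of its 1057 kb gene model. Ptprm, a receptor-type tyrosine phosphatase gene, held 11. Creb5, Ebf1 and Prdm16, 3 transcription factor genes, held 9 each. Their highest peaks had WT means of 7.03 (Creb5) to 9.26 (Prdm16), and the map of peaks by distance from the gene start shows where they lay.

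**Figure D2:**
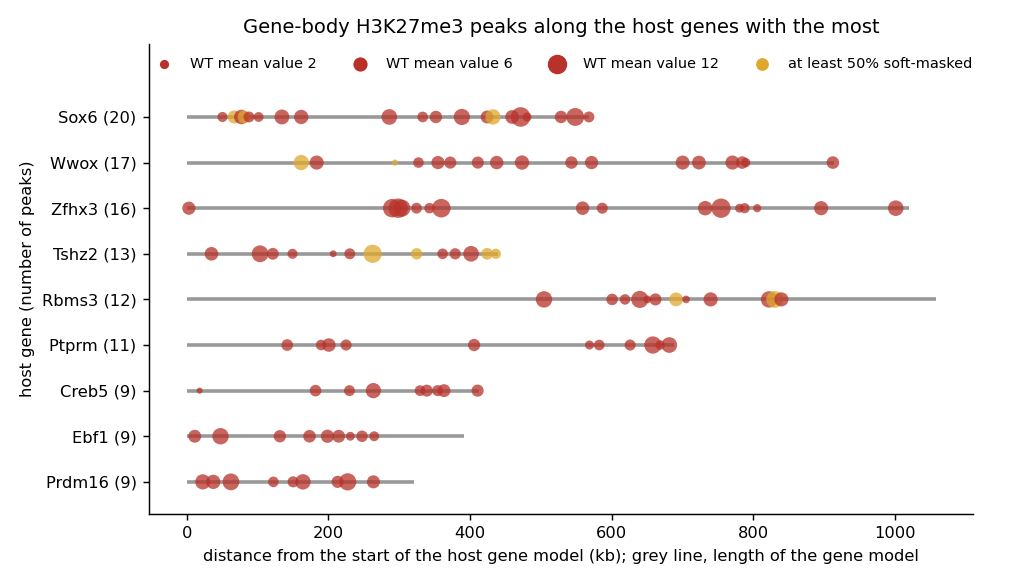
Gene-body H3K27me3 peaks (points) along the 9 named genes that hold the most, by distance from the start of the gene model (x axis, kb). Point area grows with the WT mean value, yellow points are at least 50% soft-masked, and grey lines give the length of the gene model. Sox6 has 20 peaks, and the Rbms3 peaks lie only in the inner part of the gene.

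Some hosts were named by long gene models that run over other genes. Gm20388, a 4435 kb read-through model, held 22 peaks, none nearest to its own start. Of these, 6 were annotated to Fendrr, 6 to Foxl1, 5 to Irf8 and 5 to 1700018B08Rik. Fendrr is a developmental long non-coding RNA, Foxl1 a forkhead factor and Irf8 a regulator of microglia and other myeloid cells. Fgfr2, a fibroblast growth factor receptor gene, held 8 peaks by a model of 2961 kb, and 7 of them were nearest to other genes, among them Hmx3 and Bub3.

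Genes were grouped in lists by function, and peaks were assigned by host. Developmental transcription factors were the list with the most peaks, 143 in 51 genes (11.4% of the gene-body peaks), and 18 of these genes had a promoter H3K27me3 peak. The same list held 147 of the 1095 promoter peaks, so its share is not particular to gene bodies. The lists differ in their number of genes, and the counts were not adjusted for it. The median WT mean over the 143 peaks was 4.99, against 4.75 over all gene-body peaks. The highest peak of the list lay in exon 4 of Prdm13, a factor that specifies inhibitory neurons of the spinal cord and retina (chr4:21679070-21679470). It had 23.0, 28.8 and 12.1 in WT, 16.2, 11.1 and 29.0 in Mutyh-/-, 11.9, 22.0 and 25.7 in Ogg1-/- and 7.65, 10.7 and 24.1 in DKO. The last exon of Dmrta2, a DM-domain factor of cortical patterning, had 14.2, 31.0 and 17.2 in WT. Both peaks were high in every library and their genotypes overlapped. Irx4 exon 3 (WT mean 17.8 ± 3.69) and an intron of Ebf2 (14.5 ± 3.16) were next.

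The lists named for neuronal functions held few peaks, and few at promoters as well. Promoter peaks numbered 3 in glutamate and GABA receptor, 8 in axon guidance, 11 in ion channel and 11 in synaptic adhesion and scaffold genes. In gene bodies, glutamate and GABA receptor genes held 3, among them Grik1 and Grin2c, axon guidance genes 5 in 4 genes, and voltage-gated and related ion channel genes 17 in 8 genes, among them 4 in Scn10a and 3 in Cacna2d2. The synaptic adhesion and scaffold list held 17 in 8 genes, of which the cadherin genes Cdh4 (6) and Cdh23 (5) had the most. Wnt, BMP, FGF and hedgehog signalling genes held 19 in 8 genes (Fgfr2 8, Bmp7 3), olfactory and vomeronasal receptor genes 14 in 12, and zinc finger Zfp genes 17 in 9. No peak lay in a neuron marker gene and 3 lay in glial or vascular marker genes, 2 in Flt1, an endothelial receptor of vascular endothelial growth factor, and 1 in Mag, a myelin protein gene. The exon 7 peak of Mag had 0, 5.54 and 6.03 in WT, 0, 1.11 and 5.00 in Mutyh-/-, 6.94, 0 and 7.19 in Ogg1-/- and 6.56, 13.6 and 13.6 in DKO. The DKO libraries lay above WT there, but the difference did not pass the test (limma, unadjusted p = 0.0914), and the other knockouts overlapped WT. The 3 peaks were low, with WT means of 2.54 to 5.10. No gene-body peak lay in a gene of the list of genes named by the study.

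Few gene-body peaks overlapped a called peak of another table. Overlap was bounded by the size of these tables, as the Suz12 NeuN+ table held 775 peaks beside 4132 here. Of all 4132 peaks, 192 (4.65%) overlapped Suz12 and 249 (6.03%) H3K27me3 of NeuN- nuclei. A missing overlap therefore need not mean that Suz12 or the mark was absent. A Suz12 NeuN+ peak overlapped 30 of them by at least 1 bp (2.38%, exact 95% binomial interval 1.61 to 3.39%) against 114 promoter peaks (10.4%, 8.66 to 12.4%) and 48 distal peaks (2.70%, 2.00 to 3.56%). H3K4me3 NeuN+ peaks overlapped 25 (1.99%, 1.29 to 2.92%) against 131 promoter peaks (12.0%). H3K27me3 peaks of NeuN- nuclei overlapped 47 (3.74%, 2.76 to 4.94%) against 145 promoter peaks (13.2%), and 102 when a gap of up to 1 kb was allowed. The intervals of gene-body and promoter peaks did not meet for any of the 3 tables, and those of gene-body and distal peaks overlapped for each. The intervals cover counting of peaks only. A NeuN- H3K27me3 peak overlapped 5.42% of the first-intron peaks (3.34 to 8.25%) and 2.5% of the later-intron peaks (1.41 to 4.09%), and these intervals overlapped.

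**Figure D3:**
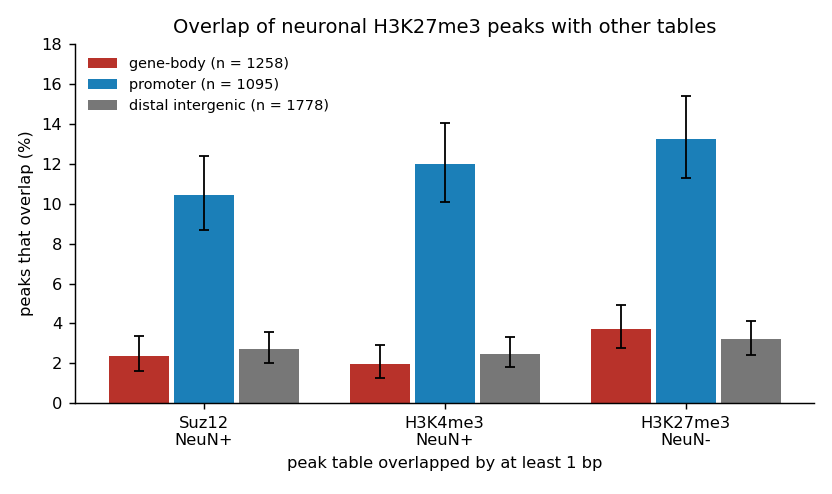
Share of gene-body, promoter and distal intergenic H3K27me3 NeuN+ peaks (y axis, percent) that overlapped a peak of Suz12 NeuN+, H3K4me3 NeuN+ or H3K27me3 NeuN- by at least 1 bp, with exact 95% binomial intervals. Gene-body peaks (2.38%, 1.99% and 3.74%) lie with distal peaks and below promoter peaks in each table.

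A Suz12 peak went with more H3K27me3. The 30 gene-body peaks with Suz12 exceeded the 1228 without by 2.15 ± 0.93 in mean log2(value + 1), in 12 of 12 libraries (exact permutation p = 0.000488, adjusted p = 0.000814). The 25 with H3K4me3 exceeded the others by 2.00 ± 1.15, also in 12 of 12 (exact permutation p = 0.000488, adjusted p = 0.000814). Of the 30 and the 25, 12 were gene-body peaks called in all 6 tables, that is with every antibody in both fractions. Without them the differences were 1.18 ± 0.36 for the 18 remaining Suz12 peaks and 0.54 ± 0.33 for the 13 remaining H3K4me3 peaks, again in 12 of 12 libraries with the same p. The 18 still include 4 windows (Kctd16, Lars2, Jarid2 and Slc30a4) that were called in 5 of the 6 tables, all but H3K4me3 NeuN+. The 13 still include Gm42642 (WT mean 39.5), called in all tables but Suz12 NeuN+.

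The 12 peaks found in all 6 tables held 1.90% to 59.3% of the reads in peaks of a library and are described before the genotypes are compared. The highest was exon 1 of the predicted gene Gm10800 (chr2:98666960-98667360, 97.0% masked). It had 2916, 993 and 70.7 in WT, 21287, 0 and 0 in Mutyh-/-, 4608, 123 and 0 in Ogg1-/- and 9663, 0 and 2727 in DKO. The same window thus held 46.9% of the reads in H3K27me3 peaks in Mutyh-/- replicate 1 and was at 0 in 4 other libraries. Gm10801, a neighbouring predicted gene, had 1609, 333 and 219 in WT and 2686, 0 and 33.0 in Mutyh-/-. Intron 3 of Chl1, a neural cell adhesion gene of the L1 family (chr6:103649009-103649409), had 158, 31.0 and 65.5 in WT, 351, 0 and 0 in Mutyh-/-, 273, 62.7 and 0 in Ogg1-/- and 236, 0 and 122 in DKO. Chl1 and Gm10801 were both at 0 in Mutyh-/- 2, Ogg1-/- 3 and DKO 2. Of 20-base words, the Chl1 window shared 90 with the Gm10801 window, and Gm33838, Gm10717 and Gm21738 shared 152, 124 and 100 with Gm10800.

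Cdk8, Filip1l and Camk1d were above 0 in every library. Intron 2 of Cdk8, a kinase of the Mediator complex (chr5:146260859-146261259, 25 CpGs), had 212, 158 and 236 in WT, 146, 268 and 424 in Mutyh-/-, 162, 239 and 503 in Ogg1-/- and 210, 188 and 375 in DKO. Intron 1 of Filip1l, a filamin-interacting protein gene (chr16:57391359-57391759, 39 CpGs), had 170, 137 and 167 in WT and 127, 230 and 243 in Mutyh-/-. Camk1d intron 3 had a WT mean of 47.5 ± 14.4. The genotypes overlapped at all 3, and none shared a 20-base word with Gm10800 or Gm10801.

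Beyond these 12, the highest gene-body peaks under 50% masked were in Kctd16, Lars2, Gm42642 and Mroh2a. Intron 2 of Kctd16, an auxiliary subunit of the GABA-B receptor, had 101, 57.6 and 126 in WT, 117, 177 and 195 in Mutyh-/-, 108, 113 and 175 in Ogg1-/- and 56.8, 91.1 and 158 in DKO, and it overlapped a peak in each of the other tables except H3K4me3 NeuN+. The 3' UTR of Lars2, the mitochondrial leucyl-tRNA synthetase, had 46.0, 36.5 and 43.9 in WT and was called in the same 5 tables. Intron 28 of Mroh2a overlapped none of the other tables and had 48.2, 11.1 and 40.5 in WT. A high window therefore did not always overlap Suz12.

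Of the 18 other gene-body peaks with Suz12, 6 held at least 20 CpGs, in Prdm13, Dmrta2, Jarid2, Gm45623, Myo15b and Rnf220. Jarid2, itself a PRC2 accessory subunit, had a peak in intron 4 with 18.6, 11.1 and 24.1 in WT, 19.3, 42.0 and 31.0 in Mutyh-/-, 6.94, 26.1 and 44.2 in Ogg1-/- and 26.2, 28.1 and 44.1 in DKO. All 3 DKO libraries lay above the 3 WT libraries at this window, but it did not pass the test for a difference. Intron 3 of Rnf220, an E3 ubiquitin ligase gene, had 15.3, 0 and 15.5 in WT and exon 1 of Myo15b, a myosin gene, 4.38, 12.2 and 16.4. Over all gene-body peaks, 8 of the 36 with at least 20 CpGs (22.2%) overlapped Suz12, against 1.23% of those with 0 to 2 CpGs. These 8 include Cdk8 and Filip1l, which were called with every antibody in both fractions.

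The share of H3K27me3 reads in gene-body peaks was compared first. It was 36.7, 30.9 and 26.8% in WT, 68.2, 25.5 and 26.2% in Mutyh-/-, 43.4, 29.3 and 25.1% in Ogg1-/- and 52.0, 26.0 and 33.0% in DKO. The knockout replicate 1 libraries had the highest shares and the other knockout libraries lay between 25.1 and 33.0%. The means were 31.4 ± 4.97, 40.0 ± 24.5, 32.6 ± 9.59 and 37.0 ± 13.4% (SD, n = 3). By exact permutation tests against WT, two-sided, p was 1, 0.9 and 0.7, with an adjusted p of 1 for each, where 0.1 is the smallest p of 3 against 3. Without the peaks found in all 6 tables, the shares lay between 25.3 and 27.8% in all 12 libraries. They averaged 26.2 ± 0.21% in WT, 26.8 ± 0.90% in Mutyh-/-, 26.5 ± 1.09% in Ogg1-/- and 26.9 ± 0.67% in DKO (exact permutation p = 0.4, 0.7 and 0.1, adjusted p = 0.6, 0.7 and 0.3). This filter was chosen after seeing the data. Without the peaks at least 50% masked, the filter planned for repeats, the shares averaged 27.9 ± 2.15% in WT, 29.6 ± 6.52% in Mutyh-/-, 28.4 ± 3.31% in Ogg1-/- and 28.6 ± 2.59% in DKO (exact permutation p = 0.9, 0.8 and 0.6, adjusted p = 0.9 for each). With 3 against 3 libraries no p under 0.05 was possible, so these tests cannot decide whether the shares differ. Without the peaks found in all 6 tables, DKO was at the smallest p of 0.1. Its libraries there had 27.7, 26.6 and 26.5%, all above the 26.3, 26.3 and 25.9% of WT.

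**Figure D4:**
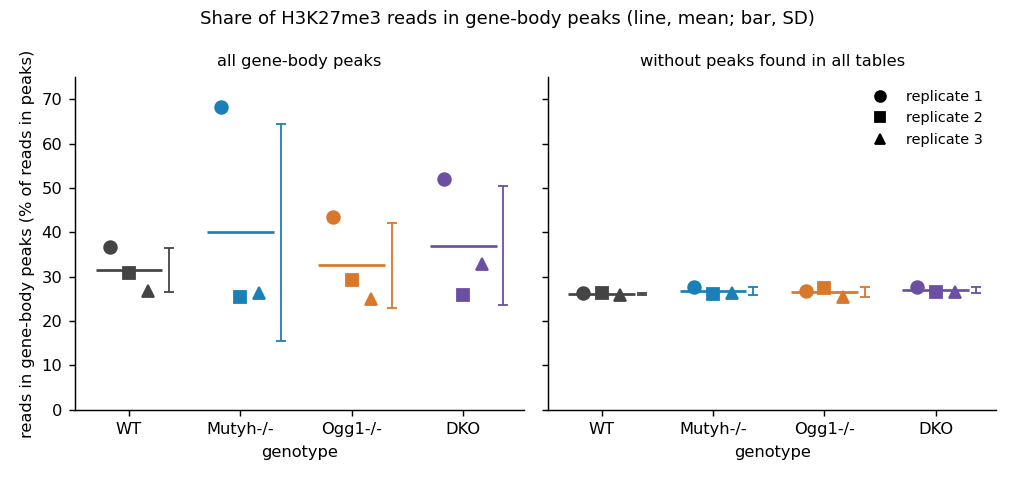
Reads in gene-body peaks as a percent of the reads in H3K27me3 NeuN+ peaks (y axis) by genotype (x axis), with all gene-body peaks (left) and without those found in all 6 tables (right). Points are libraries, lines are means and bars are SD of 3 libraries. The spread of 25.1 to 68.2% on the left falls to 25.3 to 27.8% on the right.

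Single peaks were compared with WT by limma over all 4132 peaks. No gene-body peak had an adjusted p under 0.05 (lowest adjusted p 0.999 in Mutyh-/-, 0.980 in Ogg1-/-, 0.998 in DKO and 0.990 for the non-additive term, the DKO change minus the sum of both single changes), and edgeR and DESeq2 on the recovered reads called 0 as well. Limma without robust variances called 5 in Mutyh-/-, 2 in Ogg1-/-, 0 in DKO and 4 for the non-additive term, all at peaks found in all 6 tables (Gm10800, Gm10801, Gm33838, Gm21738 and Chl1), and with robust variances their unadjusted p was 0.276 to 0.604. Differentially enriched regions (DERs) were therefore taken at an unadjusted p under 0.05 with an absolute log2 fold change over 0.5. All gene-body peaks with an unadjusted p under 0.05 also passed the fold threshold.

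In Mutyh-/-, 57 gene-body peaks were DERs (4.53% of 1258), while 3.8% of all peaks were called. Of the 57, 18 were higher, where 1.02% of all peaks were called, and 39 lower, where 2.78% were called. In Ogg1-/-, 57 were DERs against a background of 3.73%, 25 higher (background 1.52%) and 32 lower (2.2%). In DKO, 41 were DERs against 3.1%, 23 higher (1.67%) and 18 lower (1.43%). The non-additive term called 54 gene-body peaks against 3.82% of all peaks, 38 above 0 (2.86%) and 16 below (0.968%). The DERs were 4.53%, 4.53%, 3.26% and 4.29% of the gene-body peaks in Mutyh-/-, Ogg1-/-, DKO and the non-additive term. Each share is below the proportion of 0.05 that an unadjusted p under 0.05 would call with no difference at any peak. In this fit, the number of DERs alone therefore shows no difference from WT. Under the alternatives the shares lay on either side of it. In Mutyh-/-, the share was 3.66% with edgeR and the authors' factors and 6.20% in limma with the replicate number as a block. The median log2 fold change of gene-body peaks was -0.17, -0.07 and 0.03, beside -0.21, -0.11 and -0.01 over all peaks, and fold changes below are to be read against these shifts. The split between higher and lower depended on the scaling. Cyclic loess scaling moved the median of all peaks in Mutyh-/- from -0.21 to 0.03 and gave 40 higher and 30 lower gene-body DERs in Mutyh-/-, 41 and 33 in Ogg1-/- and 32 and 43 for the non-additive term. Limma with TMM factors gave 32 and 44 in Mutyh-/- and 34 and 28 for the non-additive term. On recovered reads, edgeR gave 24 and 12 in DKO and 26 and 20 for the non-additive term with TMM factors, edgeR with the authors' factors gave 21 and 6 in DKO, and DESeq2 gave 42 and 34 for the non-additive term. Without replicate 1 of each knockout, the libraries with the lowest mean levels, 29 were higher and 34 lower in Mutyh-/-, 33 and 23 in Ogg1-/- and 40 and 15 in DKO, with median log2 fold changes of gene-body peaks of 0.05, 0.15 and 0.24. The medians of the single knockouts thus turned from below to above 0 without these libraries. Leaving out replicate 3 of the knockout moved the split the other way, to 9 higher and 66 lower in Mutyh-/-, 15 and 51 in Ogg1-/- and 11 and 43 in DKO, with medians of -0.35, -0.27 and -0.22. The split between higher and lower DERs thus turned on single knockout libraries.

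The DERs were spread over many genes, 55 hosts in Mutyh-/-, 56 in Ogg1-/- and 40 in DKO. Counted once, 130 gene-body peaks were DERs in at least 1 knockout, 110 in 1 only, 15 in 2 and 5 in all 3, where the comparisons share the WT libraries. The values of these 5 are given first. A peak had been kept if it was found in at least 2 replicates of a genotype, so a window at or near 0 in every WT library, such as those of Creb5, Scn10a and Chil4 below, is likely to have been kept through knockout libraries. Its gain over WT, with its p, is then partly fixed by how the table was made and is given as a description. The same holds in the other direction for windows at 0 in a knockout. Of the 1258 gene-body peaks, 14 were at 0 in all 3 WT libraries.

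**Figure D5:**
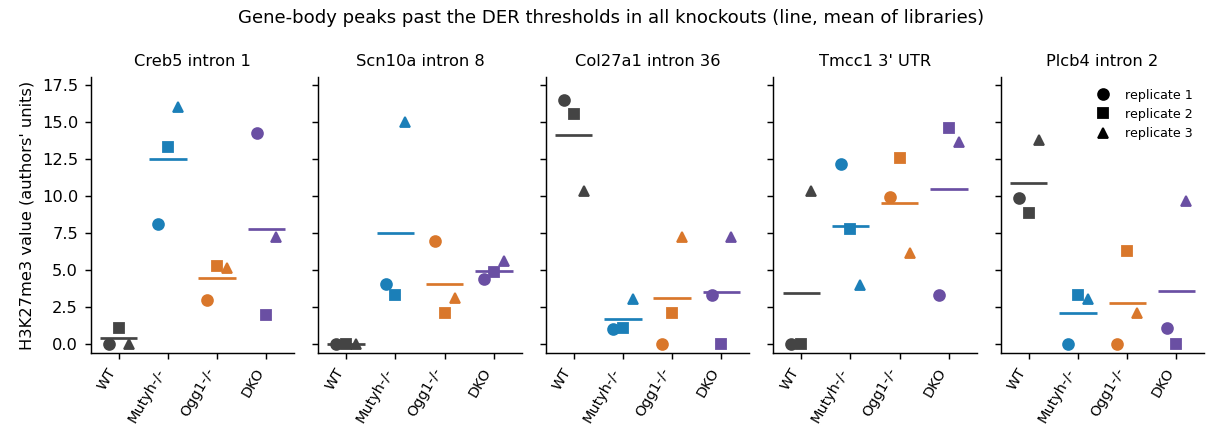
H3K27me3 values (y axis, reads per window over the library factor) of the 5 gene-body peaks that were DERs in all 3 knockouts, by genotype (x axis). Points are libraries and lines are means. Creb5 and Scn10a have low WT points, Tmcc1 has WT points at 0 and 1 at 10.3, and Col27a1 and Plcb4 have high WT points. The comparisons share the WT libraries.

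Intron 1 of Creb5, a transcription factor of the CREB family, held a DER (chr6:53305377-53305777) with 0, 1.11 and 0 in WT, 8.11, 13.3 and 16.0 in Mutyh-/-, 2.97, 5.23 and 5.14 in Ogg1-/- and 14.2, 1.94 and 7.22 in DKO. Every knockout library lay above every WT library. The log2 fold change was 3.34 ± 0.98 (SE) in Mutyh-/-, 2.06 ± 0.98 in Ogg1-/- and 2.48 ± 0.98 in DKO (limma, unadjusted p = 0.000615, 0.0352 and 0.0110, adjusted p = 0.999, 0.980 and 0.998). The Mutyh-/- call stayed when any library was left out. The Ogg1-/- call was lost without WT 1, WT 3, Ogg1-/- 2 or Ogg1-/- 3 (1.88 to 1.96) and the DKO call without DKO 1 (1.94). Of the other 8 peaks of Creb5, 1 was a DER, and it was lower in DKO (log2 fold change -2.14 ± 1.06, limma, unadjusted p = 0.0431). The highest of them, in intron 5, had a WT mean of 7.03 ± 3.83.

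Intron 8 of Scn10a, the sodium channel Nav1.8 of sensory neurons, had a value of 0 in every WT library (chr9:119667365-119667765). It had 4.06, 3.32 and 15.0 in Mutyh-/-, 6.94, 2.09 and 3.08 in Ogg1-/- and 4.37, 4.85 and 5.62 in DKO. No fold is given against a group at 0 (limma, unadjusted p = 0.00723, 0.0346 and 0.0144). The fitted log2 value in Mutyh-/- was 2.22 without Mutyh-/- 3, and the call was lost. The Ogg1-/- call was lost without any one of the WT libraries (2.22) or without Ogg1-/- 1 (1.83), and the DKO call stayed.

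The 3' UTR of Tmcc1, a membrane protein of the endoplasmic reticulum (nearest start, Plxnd1), overlapped both a Suz12 and an H3K4me3 peak and had 0, 0 and 10.3 in WT, 12.2, 7.74 and 4.00 in Mutyh-/-, 9.91, 12.5 and 6.17 in Ogg1-/- and 3.28, 14.5 and 13.6 in DKO (chr6:116022072-116022472). WT 3 lay within the knockouts. The log2 fold change was 1.89 ± 0.90, 2.18 ± 0.90 and 2.14 ± 0.90 (limma, unadjusted p = 0.0358, 0.0153 and 0.0173). Each call was lost without WT 1 or WT 2 (1.30 in Mutyh-/-, 1.60 in Ogg1-/- and 1.56 in DKO) and without some of the knockout libraries (Mutyh-/- 1 and 2, Ogg1-/- 2, DKO 2 and 3, 1.56 to 1.98). All 3 calls were also lost with edgeR and with DESeq2 on the recovered reads. The window lies 2.69 Mb from Ogg1 on chromosome 6.

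Intron 36 of Col27a1, a fibrillar collagen gene (chr4:63307461-63307861), had 16.4, 15.5 and 10.3 in WT, 1.01, 1.11 and 3.0 in Mutyh-/-, 0, 2.09 and 7.19 in Ogg1-/- and 3.28, 0 and 7.22 in DKO. All 9 knockout libraries lay below the WT libraries. The log2 fold change was -2.53 ± 1.02, -2.34 ± 1.02 and -2.18 ± 1.02 (limma, unadjusted p = 0.0130, 0.0218 and 0.0324). The Mutyh-/- call stayed without any 1 library. The other 2 were lost without WT 1 or WT 2 (-2.06 to -2.26), the Ogg1-/- call without Ogg1-/- 1 (-1.56) and the DKO call without DKO 2 (-1.32). Both were also lost with edgeR and the authors' factors and when a mean value of at least 5 was required.

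Intron 2 of Plcb4, a phospholipase C gene (chr2:135867923-135868323), had 9.86, 8.86 and 13.8 in WT, 0, 3.32 and 3.0 in Mutyh-/-, 0, 6.27 and 2.06 in Ogg1-/- and 1.09, 0 and 9.63 in DKO. DKO 3 overlapped WT. The log2 fold change was -2.17 ± 1.04, -2.05 ± 1.04 and -2.05 ± 1.04 (limma, unadjusted p = 0.0368, 0.0487 and 0.0488). All 3 calls were lost without any 1 of the WT libraries (-1.88 to -2.29), and without Mutyh-/- 1 (-1.49), Ogg1-/- 1 or 3 (-1.31 and -2.11), or DKO 1 or 2 (-1.84 and -1.31). With edgeR on the recovered reads all 3 were lost as well.

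The DERs named next were chosen for libraries that did not overlap those of WT, so their separation from WT is no result. Of the 8 Mutyh-/- DERs with the smallest p among those under 50% masked, 3 were higher (Creb5, Scn10a and B130024G19Rik) and 5 lower. Intron 1 of the non-coding gene B130024G19Rik, nearest to the nuclear receptor gene Nr2f2 (chr7:70368860-70369260), had 0, 0 and 1.72 in WT and 13.2, 5.53 and 13.0 in Mutyh-/- (log2 fold change 2.96 ± 1.03, limma, unadjusted p = 0.00407). Intron 8 of Lcp2, an adaptor of T cell receptor signalling, had 9.86, 7.75 and 14.6 in WT and 0, 0 and 4.00 in Mutyh-/- (-2.74 ± 0.97, unadjusted p = 0.00494 in limma). Windows in intron 1 of Arhgap28, a GTPase-activating protein, and of Prkg1, the cGMP-dependent protein kinase, had a value of 0 in every Mutyh-/- library. In WT, Arhgap28 had 8.76, 5.54 and 5.17 and Prkg1 had 5.48, 9.96 and 5.17. The unadjusted p in limma was 0.00550 and 0.00566. Slc26a3, an intestinal anion exchanger, had 9.86, 13.3 and 13.8 in WT and 1.01, 0 and 3.0 in Mutyh-/-, and Syt9, a calcium sensor of vesicle release, had 6.57, 5.54 and 10.3 in WT and 0, 0 and 0.999 in Mutyh-/- (log2 fold changes -2.72 ± 1.01 and -2.71 ± 1.02, limma, unadjusted p = 0.00728 and 0.00803). These 6 calls stayed when any 1 library was left out.

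In Ogg1-/-, the DERs with the smallest p were mostly lower. Intron 14 of Wdr72, a gene of enamel formation (chr9:74187001-74187401), had 16.4, 8.86 and 10.3 in WT and 0, 0 and 3.08 in Ogg1-/- (log2 fold change -2.97 ± 0.98, limma, unadjusted p = 0.00244). The 3' UTR of Snx8, a sorting nexin gene, had 19.7, 4.43 and 19.0 in WT and 3.96, 0 and 1.03 in Ogg1-/- (-2.60 ± 0.88, unadjusted p = 0.00315 in limma). The Sox6 peak in intron 13 (chr7:115490089-115490489) had 8.76, 6.64 and 14.6 in WT and 3.96, 0 and 0 in Ogg1-/- (-2.63 ± 0.96, unadjusted p = 0.00621 in limma). This was the 1 DER in Ogg1-/- among the 20 peaks of Sox6. Exon 3 of the non-coding gene Celrr had 19.7, 12.2 and 4.31 in WT and 0, 0 and 4.11 in Ogg1-/- (-2.72 ± 0.96, unadjusted p = 0.00461 in limma). Only Mdh1b, a malate dehydrogenase-like gene, was higher among these 8, with 2.19, 0 and 0 in WT and 7.93, 9.41 and 10.3 in Ogg1-/- (2.79 ± 1.04, unadjusted p = 0.00711 in limma). Exon 4 of Gm27169 and the first intron of Gm20388 near Irf8 had a value of 0 in every Ogg1-/- library (unadjusted p = 0.00981 and 0.00840 in limma), and the latter call was lost without WT 2 (-2.13). Intron 7 of Zfp521, a zinc finger factor of neural and blood progenitors, had 4.38, 8.86 and 9.48 in WT and 0, 1.05 and 0 in Ogg1-/- (-2.70 ± 1.05, unadjusted p = 0.0104 in limma).

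In DKO, intron 2 of Whrn, the hair cell scaffold whirlin (chr4:63466364-63466764), had 8.76, 12.2 and 7.76 in WT and 0, 3.88 and 0 in DKO (log2 fold change -2.62 ± 1.03, limma, unadjusted p = 0.0108), and the call stayed when any library was left out. Intron 11 of Ak8, an adenylate kinase gene, had 4.38, 0 and 0.862 in WT and 6.56, 15.5 and 12.0 in DKO (2.45 ± 0.98, unadjusted p = 0.0129 in limma), and the call was lost without WT 2 (1.89) or DKO 2 (2.20). Chil4, a chitinase-like gene, had a value of 0 in every WT library and 5.46, 7.75 and 1.60 in DKO (unadjusted p = 0.0134 in limma), and was lost without DKO 2 (2.04). Intron 6 of Skor2, a transcriptional corepressor of Purkinje cells, had 0, 0 and 0.862 in WT and 9.83, 2.91 and 7.22 in DKO (2.52 ± 1.04, unadjusted p = 0.0153 in limma), lost without DKO 1 (2.20). A window within the Fgfr2 model nearest to Bub3 had 11.0, 5.54 and 6.89 in WT and 0, 0 and 3.21 in DKO (-2.40 ± 0.97, unadjusted p = 0.0138 in limma), lost without WT 1 (-2.15) or DKO 2 (-2.05). Slfn5os had 2.19, 6.64 and 11.2 in WT and 0, 0 and 0.802 in DKO (-2.46 ± 1.05, unadjusted p = 0.0195 in limma), lost without WT 3 (-2.02), DKO 1 or DKO 2 (-2.31).

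By list, of the 143 peaks of developmental transcription factors, 0 were higher and 2 lower in Mutyh-/- (Tshz2 and Zfhx3), 0 higher and 6 lower in Ogg1-/- (Ebf2, Pax2, Tcf7l2, Tshz2, Sox6 and Zfhx3) and 1 higher and 1 lower in DKO (Skor2 and Ebf2). The 2 lower in Mutyh-/- were 1.40% of the list, where 2.78% of all peaks were called lower, and the 6 in Ogg1-/- were 4.2%, where 2.2% were. Each of the other lists holds 3 to 19 peaks, so that a single call already exceeds the share called over all peaks, and their counts are given as a description. The median log2 fold changes of this list were -0.10, 0.03 and -0.0060. Signalling genes had 1 lower DER in each knockout, in the Fgfr2 model, and 1 higher in Ogg1-/- (Bmp7). Their medians were -0.07, -0.51 and -0.13 over 19 peaks. The ion channel list had 1 higher DER in each knockout, the Scn10a window already described, with medians of -0.69, -0.0078 and 0.24 over 17 peaks. Among glutamate and GABA receptors, Grik1 was lower in Mutyh-/-, with 3.29, 7.75 and 11.2 in WT and 0, 1.11 and 0 in the knockout. The synaptic adhesion and scaffold list had 1 lower DER in Mutyh-/-, in the cadherin gene Cdh1, and medians of -0.03, 0.17 and 0.08. Being on this list does not show that a gene acts at synapses. Olfactory and vomeronasal receptors had 2 lower in Mutyh-/-, 1 of each direction in Ogg1-/- and 0 in DKO, with medians of -0.20, 0.25 and 0.20. Zinc finger Zfp genes had 0 DERs in Mutyh-/-, 2 higher and 1 lower in Ogg1-/- and 2 higher in DKO, with medians of -0.48, -0.33 and -0.28. Axon guidance and glial and vascular genes had 0 DERs in any knockout.

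Suz12 itself was compared at the 30 Suz12 NeuN+ peaks that overlapped a gene-body H3K27me3 peak, in a limma fit over all 775 Suz12 NeuN+ peaks. In Mutyh-/-, 2 were DERs where 4.9% of the table was called, in Ogg1-/- 4 where 3.61% was called and in DKO 1 where 2.06% was called, and no adjusted p was under 0.05 (limma; the unadjusted p was under 0.05 at 2, 4 and 1 of these peaks, and edgeR also gave no adjusted p under 0.05). Same-numbered Suz12 libraries of Mutyh-/- and WT deviated together in all 3 pairs. With the replicate number as a block, 2 of the 30 were again DERs in Mutyh-/-, where 12.5% of the table was then called. The Suz12 peak at Slc30a4, a zinc transporter gene, had 0, 12.9 and 0 in WT and 13.1, 33.1 and 14.2 in Mutyh-/- (log2 fold change 3.01 ± 1.28, limma, unadjusted p = 0.0182). At Tmcc1, Suz12 had 18.8, 0 and 0 in WT and 9.02, 17.6 and 19.3 in Mutyh-/- (2.53 ± 1.24, unadjusted p = 0.0416 in limma). WT 1 overlapped the knockout at Tmcc1. The others, named here after their values were seen, were lower in Ogg1-/- at Gm21738 (log2 fold change -2.21 in limma), E030030I06Rik (-2.30) and Gm21847 (-2.84), higher in Ogg1-/- at Sfi1 (2.71) and lower in DKO at Platr16 (-2.83). Of these, Gm21738, E030030I06Rik and Sfi1 were among the peaks found in all 6 tables. The Suz12 peaks at the CpG-rich windows of Jarid2, Dmrta2, Prdm13, Myo15b and Rnf220 were not DERs in any knockout. At Jarid2, Suz12 had 14.8, 32.7 and 44.3 in WT, 4.92, 29.0 and 17.2 in Mutyh-/-, 9.91, 31.8 and 15.0 in Ogg1-/- and 11.9, 18.8 and 36.2 in DKO, with all knockouts overlapping WT.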

How the data were processed

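H3K27me3, H3K4me3 and Suz12 ChIP-seq of NeuN+ and NeuN- nuclei gave 6 deposited tables of consensus peaks, with 3 libraries per genotype and table. Per the submitters' processing notes and the study's methods, reads were aligned to GRCm38 with Bowtie2 2.3.5.1, H3K27me3 peaks were called with epic2 at an FDR of 0.05 with windows of 200 bp and 3 gaps, peaks found in at least 2 replicates of a genotype were kept, and reads were counted in windows of equal width with DiffBind 3.10.1 and annotated with ChIPseeker 1.36. Input, duplicate and blacklist handling are not given in the sources used here. The deposited signal values are reads per window that the authors divided by a factor of the library. Whole reads were recovered from the step between the values. If input had been subtracted, these are reads left after it, and a 0 need not mean an empty window.

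The members are the 1258 peaks annotated to an intron, exon or UTR, and promoter and distal peaks of the same table served for comparison. The host is the gene of the GENCODE M21 transcript named in the annotation, or for UTR peaks the overlapping gene. Levels were compared on the log2(value + 1) scale. Because the values are signal and not raw counts, the main test was limma 3.58.1 with a trend and robust empirical Bayes over all peaks and all 12 libraries, in R 4.3.3, where a count test had been planned. edgeR 4.0.16 and DESeq2 1.42.0 were run on the recovered reads. Peaks counted as DERs where the p before adjustment was below 0.05 and the log2 fold change lay beyond 0.5 in either direction, and adjusted p-values are Benjamini-Hochberg over the whole table. Exact permutation tests were two-sided (scipy 1.17.1). Sequences were read with pysam 0.24.0, and pandas 2.3.3, numpy 2.4.6 and matplotlib 3.10.9 in Python 3.11.15 did the rest. The fits were tested on simulated data.

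Named peaks were the 10 highest in WT under 50% masked and the 3 highest of any, up to 8 DERs per knockout with the smallest p that were under 50% masked and did not overlap WT, the 10 genes with the most peaks, up to 4 of the highest per gene list, and DERs of all 3 knockouts. Peaks of the CpG-rich Suz12 set and of the set found in all 6 tables were named after their values were seen. The members and lists were chosen with earlier results of these data known.

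Replicates are pools of nuclei, and p-values measure only the spread between these samples. No 2 of the 66 pairs of H3K27me3 NeuN+ libraries were identical. The alternatives were another scaling, tool, pseudocount, filter on low or masked peaks, choice of libraries, and a block for the replicate number. Same-numbered Suz12 NeuN+ libraries of Mutyh-/- and WT were correlated in their deviations from the group means at 0.119 to 0.388, above 0.1 in every pair, and were taken as paired, while those of Ogg1-/- and DKO were not above it in every pair. Leaving out the peaks found in all 6 tables and replicate 1 of each knockout was chosen after seeing the data. Intervals cover counting error only. Results for a few genes are not reported here.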

Additional observations from a re-analysis of the deposited data

How the results depend on the processing

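Depth was low, with a median of 2 to 8 recovered reads per gene-body peak and library. With a mean of at least 5 required, 557 gene-body peaks were tested, and 20 were DERs in Mutyh-/- (3.59%, where 3.54% of all peaks were called), 21 in Ogg1-/- (3.77%, 3.16%), 17 in DKO (3.05%, 2.78%) and 21 for the non-additive term (3.77%, 3.3%), so the lower counts went with fewer peaks tested. With the authors' factors, edgeR called 27 in DKO. Leaving out 1 library at a time gave 46 to 75 in Mutyh-/-, 44 to 66 in Ogg1-/-, 25 (without DKO 2) to 54 in DKO and 46 to 66 for the non-additive term. Of the 35 calls named, 22 passed under every other tool, scaling, pseudocount and filter that tested their peak. In every such alternative and every leave-one-out fit, 17 passed, and no named fold change reversed. Peaks with a mean value under 5, such as those of Arhgap28, Prkg1 and Chil4, were not tested under the filter on low peaks. Their calls thus met 13 alternatives and not 14. The named calls had been chosen for a small p and for libraries apart from WT, or as DERs in all 3 knockouts. Their keeping is thus partly fixed by that choice. Over all gene-body DERs, leaving out 1 library kept 28 to 37 of 57 in Mutyh-/-, 28 to 38 of 57 in Ogg1-/- and 14 to 28 of 41 in DKO. The cause of the differences was not tested.

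The read share depended on single libraries. Against WT, its difference was -5.56 percentage points without Mutyh-/- 1 (range over leave-one-out -5.56 to 15.8), -4.26 without Ogg1-/- 1 and -1.19 without WT 3 (-4.26 to 4.89), and -1.96 without DKO 1 (-1.96 to 11.0). In the 3 WT libraries alone, where 0.25 is the smallest exact permutation p, the difference from gene-body peaks to promoter peaks was -0.61 and to distal peaks 0.0773, that of first and later introns -0.0067, and those with Suz12 and H3K4me3 2.28 and 2.34. With medians the difference to distal peaks was 0.0729, and with a pseudocount of 5 first introns exceeded later ones by 0.0274 (exact permutation p = 0.0327). Within 1 kb, 102 gene-body peaks had a NeuN- H3K27me3 peak.

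At Suz12 peaks, limma without robust variances called 4, 7 and 3 DERs in Mutyh-/-, Ogg1-/- and DKO, and edgeR with TMM factors 1 in each. Leaving out 1 library gave 1 to 3, 1 to 6 and 0 to 4. Without WT 2, 1 of the 30 Suz12 peaks had an adjusted p under 0.05 in Mutyh-/- (limma, adjusted p = 0.0276). For the non-additive term it was also 1 (limma, adjusted p = 0.0197). The lack of adjusted calls at Suz12 peaks thus depended on this library. With a replicate block, gene-body DERs numbered 78, 70 and 55, and 76 for the non-additive term, where 5.71%, 5.23%, 4.57% and 5.42% of all peaks were called, and Suz12 DERs 2, 3 and 1, where 12.5%, 12.3% and 5.16% of the Suz12 peaks were called. Same-numbered H3K27me3 libraries were correlated at 0.006 to 0.093, below 0.1 in every pair, and were not taken as paired. With so few reads per peak, low correlations do not decide whether the numbers pair the samples. Replicate 3 had the highest mean level over gene-body peaks in each genotype (2.34 in WT, 2.43 in Mutyh-/-, 2.54 in Ogg1-/- and 2.73 in DKO).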
